A study of Mus musculus with 16 samples.

Results

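The comparison described here sets mouse macrophages given thrombin-activated platelets against macrophages given vehicle, PBS. Its 8 libraries, 4 per group, are those whose labels name these 2 treatments, out of 16 libraries in the series. All cells were bone marrow-derived macrophages of C57BL6/J mice, wild type as far as the labels say, with no age or sex given. Marrow was cultured for 7 days with 15% L929-conditioned medium, which supplies the growth factor M-CSF, and 400000 cells were plated, starved for 4 h in 0.5% serum and treated for 4 h. The platelets came from blood of mice of the same strain, and the protocol gives 0.01 U/mL thrombin for their activation, while the group's own label gives no dose. The number of platelets added, and whether they were washed free of thrombin or of other blood cells, is not given in the sources used here. The other 2 groups, also treated for 4 h, received resting platelets or thrombin alone (0.01 U/mL in the protocol, 0.1 U/mL in the sample label), and they enter at the end as direct contrasts.

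Platelets are fragments of megakaryocytes that circulate without a nucleus. Thrombin, the last protease of the coagulation cascade, cleaves receptors on their surface, and they then release granules that hold chemokines such as Pf4 and Ppbp, TGF-beta, other growth factors, ADP and serotonin, and make lipid mediators. Macrophages carry receptors for many of these products, and they answer inflammatory and repair signals within hours by changing the transcription of cytokines, growth factors and metabolic enzymes.

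Library totals were 22554915 to 27691521 counts with vehicle and 28034747 to 30602414 counts with activated platelets. Principal components were computed on the 1000 genes that varied most over these 8 libraries, so their shares of variance are not those of all tested genes. The first held 59.9% of the variance and split the groups, with vehicle between -25.0 and -21.1 and activated platelets between 22.6 and 23.2. The second, with 19.5%, set the replicate 1 libraries apart (20.7 and 21.8), and these 2 libraries also have male-type transcripts where replicates 2 to 4 have female-type ones. Counts of rises and falls in a gene list are also given with the replicate number as a block, or without replicate 1, where either count moves by over 1.5 times. Levels are in CPM, a gene's count relative to the TMM-scaled total of its library, and values in order are replicates 1 to 4. "Rose" and "fell" are used for genes with an adjusted p under 0.05 in edgeR's quasi-likelihood test (Benjamini-Hochberg over 15610 genes). That test had no replicate block, so a gene that did not pass may pass with the block. Errors on log2 fold changes, marked SE, are approximate standard errors, taken as the absolute log2 fold change over the square root of that test's F statistic. All errors on CPM are SDs of 4 libraries.

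With activated platelets 4031 of 15610 tested genes passed the test, 25.8%, with 1907 higher (12.2%) and 2124 lower (13.6%). The median log2 fold change of all tested genes was -0.004. Most changes were small: 1328 rises and 1505 falls were under 1.5-fold, and 332 rises (2.13% of tested genes) and 266 falls (1.7%) reached 2-fold. Outside the platelet and erythroid lists, 139 of 307 such rises and 69 of 266 such falls had a vehicle mean under 1 CPM, where folds rest on few counts. Of 8-fold or more there were 39 rises, 22 of them outside the platelet and erythroid lists, and 4 falls, and Mpig6b, a platelet receptor chosen after its values were seen, is among the 22 (0.0114 and 2.74 CPM). The 4 libraries of each group did not overlap for 4061 genes (26%; 12.6% higher and 13.5% lower), and 3449 of these were among the called genes. Without replicate 1 the counts were 1269 higher and 1258 lower, and with the replicate number as a block 6635 in all (42.5%), 3122 higher (20%) and 3513 lower (22.5%). These shares of all tested genes are the background for the gene list counts of the same fit. For list counts without replicate 1 that background is 1269 higher and 1258 lower of 15610. Removing the platelet and erythroid genes before the fit left 3997 calls.

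**Figure D1:**
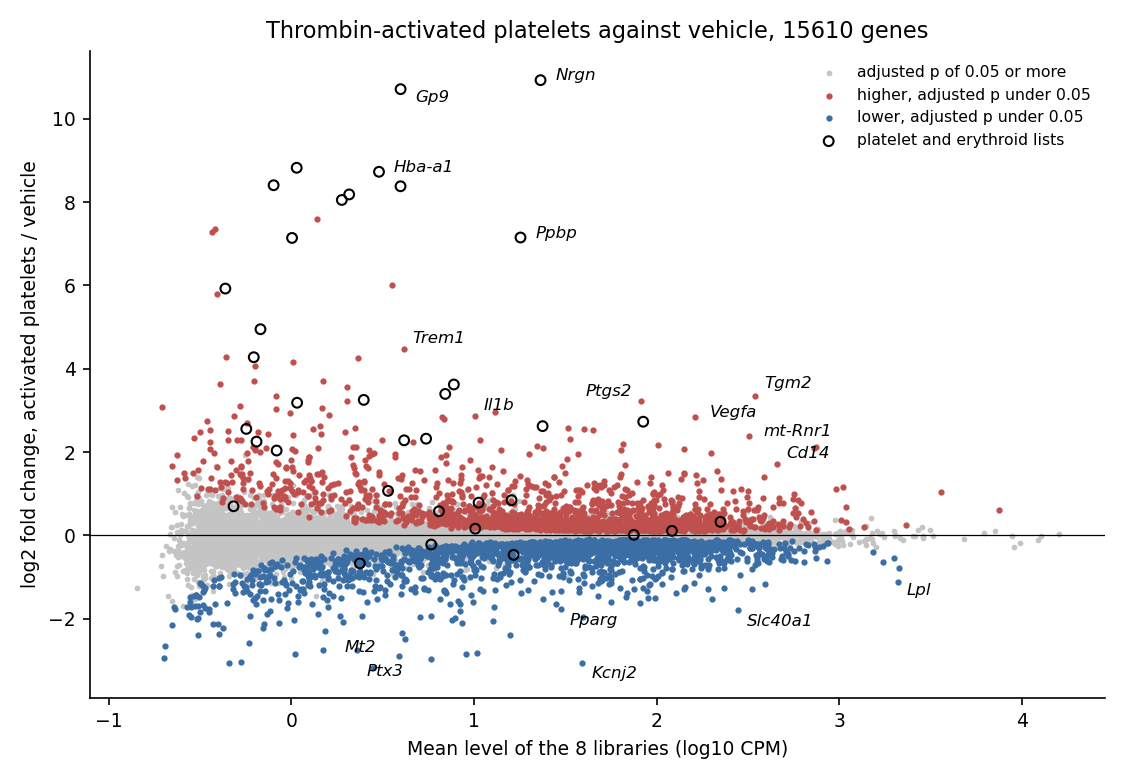
Each point is 1 of 15610 genes, by its mean level over the 8 libraries (x axis, log10 CPM) and its log2 fold change, activated platelets over vehicle (y axis). Red and blue points passed an adjusted p of 0.05 and open circles are members of the platelet and erythroid lists. The largest rises, Nrgn and Gp9, are circles, while Trem1 lies at 4.48 and Kcnj2 at -3.08.

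The cells carried macrophage transcripts in both groups. The 17 macrophage identity genes took 2.61% ± 0.204 of vehicle counts and 2.65% ± 0.233 with activated platelets (exact two-sided permutation p = 0.886). Csf1r, the M-CSF receptor, stood at 2567 ± 226 and 2810.4 ± 323 CPM (adjusted p = 0.354), and Adgre1, which encodes F4/80, at 1441 ± 129 and 1348 ± 92.2 CPM (adjusted p = 0.4). With the replicate number as a block both passed, Csf1r higher (adjusted p = 0.000229) and Adgre1 lower (adjusted p = 0.00893). Of the 17 genes 5 rose and 2 fell (8 and 7 with the block; 4 and 1 without replicate 1). The rises included Cd14, Cx3cr1, Fcgr1 and Cebpa, and the falls Maf and Mertk, the last a receptor for dying cells whose call ended without replicate 1, 2 or 4. Cx3cr1, the fractalkine receptor, went from 90.5 to 172 CPM and stood at 173 CPM with resting platelets.

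Platelet RNA was present in the treated libraries. Nrgn, an abundant platelet transcript, was at 0, 0, 0 and 0.0714 CPM with vehicle and 37.9, 60.6, 47.8 and 38.9 CPM with activated platelets. Ppbp, a chemokine of platelet granules, was at 0.322, 0.182, 0.0732 and 0.392 CPM against 31, 46.3, 35.6 and 30.1 CPM. Gp9, a subunit of the platelet receptor for von Willebrand factor, had 0 counts with vehicle and 921 with activated platelets, at least 277-fold higher when the vehicle group as a whole is set to 3 counts. For each of these 3 genes every treated library lay far above every vehicle library, and replicate 2 was the highest. Nrgn had 2 counts in vehicle, a ratio of 2427 (95% counting interval 672 to 20048). Intervals and floors of this kind cover counting error only.

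Among 32 tested platelet and megakaryocyte genes of 40 listed, 26 rose and 1, Rgs18, fell (not without replicate 1), and 8 were too low to test. Since many passed the filter on low counts only through the treated group, this count is a description. Other members were Ctla2a at 22.2 and 147 CPM and Gng11 at 6.63 and 40.9 CPM. Vwf and Myl9 had levels of 74.9 ± 24.3 and 117 ± 40.1 CPM in vehicle already, and 75.3 ± 18.4 and 126 ± 36.7 CPM after treatment (adjusted p = 0.98 and 0.836; Myl9 0.0268 with the block). Pf4, a platelet chemokine with a high level in vehicle too, went from 199 ± 19.3 to 249 ± 20.2 CPM (adjusted p = 0.00219). The whole list, with 39 of 40 members present in some treated library and Cmtm5 at 0 throughout, took 0.0427% to 0.0553% of vehicle counts and 0.0815% to 0.0923% of treated counts (exact permutation p = 0.0286, the smallest that 4 against 4 allows, adjusted p = 0.05 over 7 lists). Haemoglobin transcripts were also present, Hba-a1 having 1 count in vehicle and 704 after treatment and Hbb-bs 0 and 48, and 2 of 4 tested erythroid genes rose and 0 fell (1 lower at an unadjusted p under 0.05, 0 lower by DESeq2; 2 and 1 with the block; 2 and 1 without replicate 1). Near-identical copies such as Hba-a1 and Hba-a2 are uncertain as single genes.

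The ribosomal RNAs of mitochondria rose beside these transcripts. mt-Rnr1 was at 108, 94.3, 124 and 86.3 CPM with vehicle and 488, 683, 528 and 463 CPM with activated platelets (5.25-fold higher, log2 fold change 2.39 ± 0.18, SE, adjusted p = 1.16e-07). mt-Rnr2, chosen after its values were seen, went from 277 ± 41.1 to 1180.1 ± 200.1 CPM. Replicate 2 was the highest treated library for both, as for Nrgn, Ppbp and Gp9. Of 23 nuclear genes of the respiratory chain 4 rose (17.4%, beside 12.2% of all genes) and 0 fell (before adjustment 7 up and 0 down at p under 0.05; 4 and 0 by DESeq2; 6 and 0 with the block), each of the 4 by under 1.5-fold, among them Cox5a and Sdhb. Whether the mitochondrial rRNA came from the platelets was not tested.

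**Figure D2:**
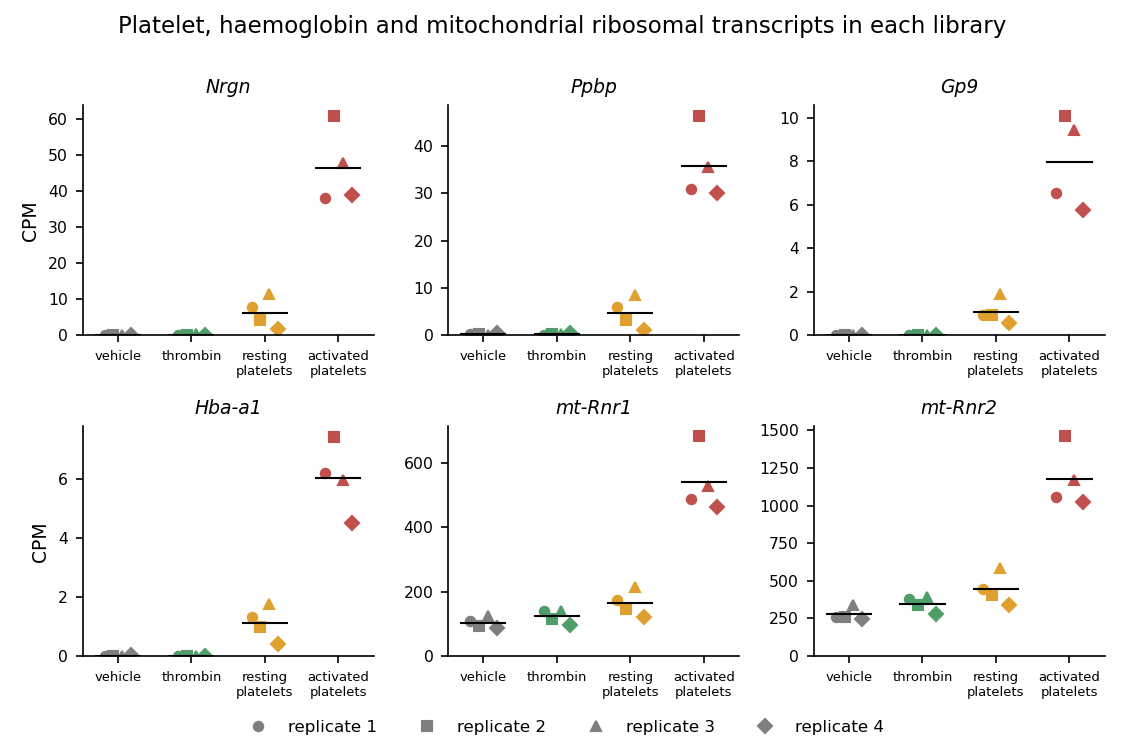
CPM (y axes, linear from 0) of 3 platelet transcripts, a haemoglobin transcript and 2 mitochondrial ribosomal RNAs in each of 16 libraries, by treatment. Symbols are replicate numbers and black bars are means of 4 libraries. In all 6 panels the activated platelet libraries lie above every other library, and resting platelet libraries carry less of each transcript than activated platelet libraries.

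Markers of other cells in the cultures moved as follows. Lymphocyte markers took 0.00181% to 0.00327% of counts in vehicle and 0.000677% to 0.00128% with activated platelets, and dendritic cell markers 0.000465% to 0.000525% and 0.000253% to 0.00034%. Both were lower in 4 of 4 replicate numbers, with an exact permutation p of 0.0286 and an adjusted p of 0.05 over 7 lists, which does not pass. Ighm, an immunoglobulin heavy chain gene, leads the first list and was at 21, 13.8, 25.4 and 22.2 CPM and then 4.51, 2.91, 7.3 and 5.01 CPM, and the second holds Batf3, a transcription factor of dendritic cells, which fell from 2.55 to 0.518 CPM. In bulk RNA, fewer cells of a type and less RNA per cell cannot be told apart. Ighm and Batf3 were the members that passed, of 2 and 3 tested (0 higher at an unadjusted p under 0.05 and by DESeq2). With the block the 2 tested lymphocyte genes were lower. The T cell genes Cd3e and Cd3g and the mast cell genes Fcer1a and Tpsb2 had 0 counts in all 8 libraries. Neutrophil markers stood at 0.00761% and 0.0107% (exact permutation p = 0.2), and markers of mast cells and basophils at 0.00021% and 0.000189% (exact permutation p = 0.657). EdgeR's quasi-likelihood test called 0 of 8 and 0 of 3 of their genes (2 and 0 at an unadjusted p under 0.05, 0 and 0 by DESeq2). With the block 2 neutrophil genes were higher and 0 lower. Stromal and endothelial markers took 0.47% ± 0.159 and 0.421% ± 0.154 (exact permutation p = 0.6), lower in 4 of 4 numbers, with 0 of 8 genes called (0 at an unadjusted p under 0.05, 0 by DESeq2, 1 and 3 with the block). Their share was higher in replicates 1 and 4 (0.646% and 0.561% in vehicle) than in 2 and 3 (0.315% and 0.358%).

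The 12 largest rises named by rule were Trem1, Tgm2, Ptgs2, Has2, Il1b, Vegfa, Nt5e, Spsb1, Carmil1, Hbegf, mt-Rnr1 and Megf10. The 12 largest falls were Gprin3, Kcnj2, Ptx3, Mt2, Rspo2, Adamts5, Abcg3, Ptchd1, Irs1, Ighm, Ccl4 and Rasgrp3. All 24 were chosen for having groups that do not overlap, so their separation is no finding. Trem1, a receptor of myeloid cells that amplifies inflammatory signals (chromosome 17, 48539763 to 48553955, GRCm39), was near the detection limit in vehicle. It stood at 0.25, 0.227, 0.512 and 0.392 CPM in vehicle and at 9.3, 6.69, 5.82 and 9.74 CPM with activated platelets. This was a 22.3-fold rise (log2 fold change 4.48 ± 0.31, SE, adjusted p = 3.35e-08), with replicates 1 and 4 the highest. Carmil1, a regulator of actin filament capping, was even over libraries, at 10.7, 11, 12.9 and 12.2 CPM and 68, 63.9, 69.4 and 71.8 CPM (5.82-fold higher, log2 fold change 2.54 ± 0.10, SE, adjusted p = 1.16e-10). Spsb1, a substrate receptor of a ubiquitin ligase, went from 9.45 to 56.3 CPM, and Megf10, an engulfment receptor, from 1.05 to 5.23 CPM. Among the falls, Rasgrp3, an exchange factor for Ras and Rap proteins, went from 12.6 to 3.17 CPM, Gprin3 from 5.09 to 0.546 CPM and Ptchd1 from 26.6 to 5.03 CPM.

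The inflammatory response was uneven. Il1b, the gene of the cytokine interleukin-1 beta (chromosome 2, 129206490 to 129213059), was at 0.966, 2.77, 3.7 and 2.35 CPM with vehicle and 13.7, 19.4, 20.8 and 17 CPM with activated platelets, 7.27-fold higher (log2 fold change 2.86 ± 0.28, SE, adjusted p = 1.65e-06). Replicate 1 was the lowest library in both groups. Tnf, which encodes tumour necrosis factor, was at 15.3, 17.4, 12.8 and 11.7 CPM and 10.5, 22.2, 10.7 and 9.36 CPM, with overlapping groups and the treated replicate 2 above all others (log2 fold change -0.11 ± 0.23, SE, adjusted p = 0.772). Without the treated replicate 2 it was lower and passed. Of 17 inflammatory cytokine and NF-kB target genes 8 rose and 0 fell (0 lower at an unadjusted p under 0.05 and by DESeq2), a median log2 fold change of 0.25 beside -0.004 for all genes. The rises past 2-fold were Ptgs2, Il1b and Il1a, and the others, Nfkb2, Tnfaip3, Birc3, Traf1 and Bcl3, lay between 0.37 and 0.61 in log2 fold change. Nfkbia, Icam1 and Cd40 did not pass. Il6 had too few counts to be tested.

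Chemokines moved both ways, and 7 rose and 2 fell of 16 (median 0.60). The falls were the neighbouring genes Ccl3 and Ccl4. Ccl4 was at 13, 13.2, 11.8 and 10.5 CPM and then at 2.72, 3.99, 2.77 and 2.44 CPM (4.06-fold lower, log2 fold change -2.02 ± 0.14, SE, adjusted p = 5.23e-08), and Ccl3 fell from 19.8 to 6.0 CPM. Rises included Cxcl16, which also acts as a scavenger receptor (from 328 to 612 CPM), Ccl9 (from 248 to 385 CPM), Cxcl14 (from 48.9 to 98.6 CPM), Cx3cl1, the ligand of Cx3cr1 (from 11.8 to 27.8 CPM), and the neutrophil attractant Cxcl2 (from 5.38 to 11.1 CPM). Ccl2 and Cxcl10 did not pass. Among 13 genes of anti-inflammatory feedback 7 rose and 1 fell (median 0.47). Il1rn, the interleukin-1 receptor antagonist, rose from 26.9 ± 1.73 to 64.4 ± 5.29 CPM (log2 fold change 1.26 ± 0.07, SE, adjusted p = 6.97e-09), and Zfp36, which destabilises cytokine mRNA, from 93.7 to 152 CPM. Il10 fell, at 0.503 CPM in vehicle and 0.151 CPM after treatment, both low levels.

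Receptors that sense microbes and damage changed in opposite directions, with 8 rises and 8 falls among 24 (median -0.08). Cd14, the co-receptor for lipopolysaccharide, rose. It stood at 199.6, 200.3, 239.9 and 216 CPM with vehicle and at 714, 688, 703 and 698 CPM with activated platelets (3.28-fold higher, log2 fold change 1.71 ± 0.06, SE, adjusted p = 2.90e-11), with little spread within either group. Tlr2 rose from 109 to 320.4 CPM (2.94-fold) and Clec4e, the lectin Mincle, from 16.5 to 46.5 CPM (2.82-fold). Clec4d, its neighbour and partner, rose from 382 to 756 CPM. Tlr7 and Tlr13, which sense microbial RNA, fell, Tlr13 from 429.7 to 278 CPM, as did Tlr1, Tlr4, Tlr6, Clec7a and Nod1, while Tlr3 rose by under 1.5-fold. Ptx3, a soluble pattern receptor, was at 16.7, 7.82, 6.19 and 10.6 CPM and then at 1.69, 1.18, 0.647 and 1.68 CPM (7.91-fold lower, log2 fold change -2.98 ± 0.39, SE, adjusted p = 3.38e-05), with replicate 1 highest in both groups.

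Prostaglandin genes moved both ways. Ptgs2, the inducible cyclooxygenase (chromosome 1, 149975782 to 149983985), was at 16.9, 14.6, 14.9 and 16.5 CPM with vehicle and at 179.7, 104, 116 and 193 CPM with activated platelets, 9.42-fold higher (log2 fold change 3.24 ± 0.23, SE, adjusted p = 5.13e-08). Its treated level was higher in replicates 1 and 4 than in 2 and 3, while vehicle libraries were close together. The prostaglandin E2 synthase gene Ptges rose, and the receptor Ptger2 rose from 20.5 to 35 CPM. The receptor Ptger4 fell from 30.6 to 15.9 CPM, as did the prostaglandin D2 synthase Hpgds (from 223 to 128 CPM) and Hpgd, which breaks down prostaglandins (from 70.02 to 25.5 CPM). In all 4 rose and 4 fell of 15 (median -0.09; 5 and 7 with the block).

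Genes of cyclic AMP signalling, which prostaglandin E2 and adenosine receptors feed, had 13 rises and 2 falls among 21 (61.9% rose, beside 12.2% of all genes; median 0.41). The phosphodiesterase genes Pde4b, Pde4d, Pde3b, Pde8a and Pde10a rose, whose products break down cyclic AMP, and Pde4a fell by under 1.5-fold. Pde4d was at 3.97, 3.82, 4.98 and 4.28 CPM and then at 14.5, 12.2, 14.9 and 17.9 CPM (3.48-fold higher, log2 fold change 1.8 ± 0.12, SE, adjusted p = 3.33e-08), and at 4.44 CPM with resting platelets. Crem, a transcription factor of the pathway, rose from 9.86 to 22.3 CPM, and the nuclear receptors Nr4a1, Nr4a2 and Nr4a3 rose, Nr4a1 from 2.41 to 7.15 CPM. The adenylyl cyclase gene Adcy9 fell from 44.6 to 23.7 CPM.

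Of 25 immediate early and AP-1 genes 12 rose and 3 fell (median 0.47; 14 and 5 with the block). Fos, a subunit of the transcription factor AP-1 (chromosome 12, 85520664 to 85524048), was at 49.8, 56, 55.7 and 56.4 CPM and then at 214, 218, 225 and 255 CPM (4.19-fold higher, log2 fold change 2.07 ± 0.11, SE, adjusted p = 2.04e-09), with close agreement among libraries of a group. Fosl2 rose from 74.2 to 209 CPM and Dusp5, a phosphatase of ERK, from 2.71 to 11.9 CPM. Egr1, Jun and Myc did not pass. Atf3, a repressor of inflammatory genes, fell: it was at 278, 442, 237 and 238 CPM and then at 86.3, 149, 96.7 and 78.8 CPM (log2 fold change -1.54 ± 0.26, SE, adjusted p = 0.000342), highest in replicate 2 of both groups. Klf2 and Klf6 fell as well.

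Promoter windows of 5 genes named above or below are printed so that short binding motifs can be read beside the responses. They are RefSeq windows on GRCm38.p6, from 250 bases before to 50 after a start site, and capitals mark matches on either strand to the letters TGACGT (a short form of the cyclic AMP response element), TGANTCA (AP-1), GTCTAGAC and CAGACA (Smad), an NF-kB site (GGG, any 2 bases, TTTCC) and ACGTG (core of the hypoxia element). Ptgs2 (chr1:150099781-150100080, strand +), Fos (chr12:85473640-85473939, strand +), Il1b (chr2:129371090-129371389, strand -) and Trem1 (chr17:48232489-48232788, strand +) rose, and Kcnj2 (chr11:111065914-111066213, strand +) fell.
Ptgs2: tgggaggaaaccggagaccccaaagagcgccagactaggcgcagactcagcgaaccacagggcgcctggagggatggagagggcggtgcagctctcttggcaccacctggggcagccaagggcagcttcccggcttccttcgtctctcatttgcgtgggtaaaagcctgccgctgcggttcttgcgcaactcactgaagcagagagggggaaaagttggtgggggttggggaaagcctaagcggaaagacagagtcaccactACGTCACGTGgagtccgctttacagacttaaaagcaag
Fos: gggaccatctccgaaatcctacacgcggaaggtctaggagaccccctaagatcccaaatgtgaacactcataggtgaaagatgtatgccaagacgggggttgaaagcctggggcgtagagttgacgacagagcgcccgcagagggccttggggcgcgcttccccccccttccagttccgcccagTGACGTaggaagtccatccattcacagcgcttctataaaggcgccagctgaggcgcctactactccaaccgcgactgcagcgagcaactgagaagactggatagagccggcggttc
Il1b: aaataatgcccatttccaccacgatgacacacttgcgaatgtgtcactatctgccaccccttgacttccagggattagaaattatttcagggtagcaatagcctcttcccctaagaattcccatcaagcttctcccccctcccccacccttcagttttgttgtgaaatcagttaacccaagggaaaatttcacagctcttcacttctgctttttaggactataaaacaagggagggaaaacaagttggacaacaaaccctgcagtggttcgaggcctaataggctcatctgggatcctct
Trem1: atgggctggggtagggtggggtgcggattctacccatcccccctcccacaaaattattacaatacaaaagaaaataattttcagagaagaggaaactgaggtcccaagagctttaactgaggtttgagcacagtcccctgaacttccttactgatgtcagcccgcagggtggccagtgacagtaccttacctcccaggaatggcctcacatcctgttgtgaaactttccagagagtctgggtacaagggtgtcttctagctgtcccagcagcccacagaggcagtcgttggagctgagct
Kcnj2: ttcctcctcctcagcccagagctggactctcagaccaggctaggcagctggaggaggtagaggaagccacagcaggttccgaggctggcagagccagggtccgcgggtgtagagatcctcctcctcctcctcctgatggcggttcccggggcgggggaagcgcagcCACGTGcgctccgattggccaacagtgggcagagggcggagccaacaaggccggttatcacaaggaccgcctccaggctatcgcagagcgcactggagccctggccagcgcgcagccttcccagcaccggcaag
In the Ptgs2 window the cyclic AMP site lies in reverse as ACGTCA, with its first base at position 13 after the start, and it overlaps a palindrome that holds the hypoxia core on both strands. In the Fos window it lies forward as TGACGT, with its first base 66 before the start. The Kcnj2 window holds the hypoxia core on both strands in 1 palindrome, and the Il1b and Trem1 windows hold none of these letters. Windows of Vegfa, which rose, were searched as well but are not printed. The one at chr17:46032328-46032627 holds none of these letters. The one at chr17:46025114-46025413 holds the cyclic AMP site, CAGACA and the hypoxia core, all in reverse. Since the gene is on strand -, this second window lies downstream of the first. Its matches are therefore not in the region before the upstream start site. Of 14248 windows of tested genes (71.5% of tested genes had one), 10.9% hold the cyclic AMP site, 24.8% the hypoxia core, 16.3% CAGACA, 5.51% the AP-1 letters, 1.73% the NF-kB letters and 0.246% GTCTAGAC. A match is a description of letters, not of binding.

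Targets and regulators of TGF-beta signalling rose more often than they fell, with 11 rises and 3 falls among 25 (median 0.17; 13 and 6 with the block). Tgm2, a transglutaminase that crosslinks proteins (chromosome 2, 157958325 to 157988312), is on the alternative activation list and is also a known target of this pathway. It was at 54, 45.9, 78.5 and 72.3 CPM with vehicle and at 625, 508, 591 and 808 CPM with activated platelets, 10.1-fold higher (log2 fold change 3.34 ± 0.21, SE, adjusted p = 1.33e-08), with replicate 4 the highest treated library. Tgfbi, a secreted matrix protein, rose from 213 ± 7.82 to 561 ± 65.7 CPM, and Pmepa1, an inhibitor of the pathway, from 23.3 ± 6.84 to 107 ± 20.8 CPM. The inhibitors Smad7 (from 9.87 to 20.9 CPM), Skil (from 145 to 305 CPM) and Ski (from 179.6 to 309 CPM) rose, as did the receptor Tgfbr1 (from 569.9 to 838 CPM). The receptors Tgfbr2 and Tgfbr3 and the mediator Smad2 fell, and Id1, Id2 and Id3, targets of the BMP branch, did not pass.

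Growth and repair factors had 11 rises and 5 falls among 19 (median 1.04; 10 and 3 without replicate 1). Vegfa, the main growth factor of blood vessels (chromosome 17, 46327919 to 46343303), was at 43.2, 30.2, 42.4 and 41.9 CPM with vehicle and 301, 218, 289 and 332 CPM with activated platelets, 7.22-fold higher (log2 fold change 2.85 ± 0.14, SE, adjusted p = 1.05e-09). Replicate 2 was lowest in both groups. Hbegf, a ligand of the EGF receptor, rose from 13.2 to 76.6 CPM (5.76-fold), and Lif (from 8.1 to 36.2 CPM), Osm (from 6.12 to 19 CPM), Fgf2 (from 8.98 to 38.8 CPM), Inhba, the activin A subunit (from 80.5 to 316 CPM) and Pdgfa (from 29.7 to 68.2 CPM) rose too. The vascular receptors Nrp1 and Nrp2 fell, Nrp1 from 472 to 192 CPM, as did Gas6, which bridges dying cells to Mertk (from 244 to 139 CPM), Igf1 (from 654 to 433 CPM) and Vegfb. The call of Igf1 ended without replicate 1 or 3.

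Some genes followed the replicates as stromal markers did. Fgf2 was at 8.8, 5.68, 9.84 and 11.6 CPM in vehicle and 46.8, 24.6, 32.9 and 51 CPM after treatment (log2 fold change 2.1 ± 0.26, SE, adjusted p = 2.11e-05). After treatment replicates 1 and 4 were above 2 and 3, and these are the replicates with the larger share of stromal markers. Trem1, Ptgs2, Tgm2, Vegfa, Has2 and Nt5e had this order after treatment too, while Il1b, Fos, Cd14 and Carmil1 did not. The falls of Rspo2, an activator of Wnt signalling, and Adamts5, an aggrecanase, had that order as well: Rspo2 went from 23.2, 8.59, 13.4 and 18.6 CPM to 2.89, 1.28, 1.65 and 2.95 CPM (log2 fold change -2.86 ± 0.46, SE, adjusted p = 0.000255) and Adamts5 from 28.6, 10.4, 12.1 and 22.1 CPM to 3.34, 1.84, 1.87 and 3.22 CPM (log2 fold change -2.83 ± 0.46, SE, adjusted p = 0.000243). The stromal share itself moved by under 1.5-fold between groups, and its part in these changes was not tested.

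Coagulation genes held 5 rises and 0 falls among 18 (27.8% called, near the 25.8% of all genes; 0 lower at an unadjusted p under 0.05 and by DESeq2; 7 and 3 with the block, beside 42.5% of all genes called with it). The urokinase receptor Plaur rose from 39.3 to 69.8 CPM and tissue factor, F3, from 0.584 to 1.61 CPM, a low level, while the thrombin receptor F2r and thrombomodulin, Thbd, did not pass. F2rl2 rose from 0.161 to 0.974 CPM, and it is also on the platelet list. Of 23 matrix genes 7 rose and 1 fell (11 and 5 with the block; 6 and 0 without replicate 1). Has2, a hyaluronan synthase, was at 2.36, 3.0, 2.67 and 3.85 CPM and then at 23.7, 15.9, 19.4 and 33 CPM (7.73-fold higher, log2 fold change 2.95 ± 0.25, SE, adjusted p = 3.64e-07), highest in replicate 4 of both groups. Adam8 rose from 835 to 1345 CPM, the hyaluronan receptor Cd44 from 488 to 707 CPM and Timp3 from 102 to 257 CPM. Thrombospondin-1, Thbs1, an abundant secreted protein that platelets also store, rose from 2353 to 4835 CPM (adjusted p = 0.0106), a call that ended without replicate 3 or 4.

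Receptors and enzymes that meet platelet products followed. Nt5e, the ectoenzyme that makes adenosine from AMP, was at 2.5, 1.0, 1.68 and 1.61 CPM and then at 13.8, 9.18, 11.1 and 13.7 CPM (6.94-fold higher, log2 fold change 2.79 ± 0.32, SE, adjusted p = 8.69e-06). P2ry1, a receptor for ADP, was at 8.66, 13.6, 7.1 and 7.85 CPM and then at 2.27, 2.67, 2.55 and 2.09 CPM (3.86-fold lower, log2 fold change -1.95 ± 0.21, SE, adjusted p = 6.24e-06). The adenosine receptor Adora2b (from 2.69 to 6.42 CPM), the serotonin receptor Htr1b (from 5.49 to 22.7 CPM) and the chemokine receptors Ccr1 (from 31.2 to 72.4 CPM) and Cxcr4 (from 205 to 431 CPM) rose, and P2rx7, the channel for extracellular ATP, fell from 151 to 117 CPM. In all 9 rose and 3 fell of 24 (median 0.19; 11 and 8 with the block).

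Genes of glucose use and hypoxia changed in both directions. Hif1a, the oxygen-regulated transcription factor, was at 115, 105, 115 and 111 CPM and then at 231, 240.1, 237 and 219 CPM (2.08-fold higher, log2 fold change 1.05 ± 0.06, SE, adjusted p = 6.05e-09). Pfkfb3, a regulator of glycolysis, the glucose transporter Slc2a1 (from 44.9 to 77.7 CPM) and hexokinase 2, Hk2 (from 51.8 to 80.2 CPM), rose. Pdk1, a kinase that restrains the oxidation of pyruvate in mitochondria, was at 40.5, 40.1, 41.8 and 42.6 CPM and then at 20.04, 19.7, 20.5 and 21.6 CPM (2.02-fold lower, log2 fold change -1.01 ± 0.05, SE, adjusted p = 1.45e-09). Adm (from 2.44 to 0.741 CPM), Bnip3, Ankrd37, Egln3 and Car9 fell, and Ldha, Pgk1 and Aldoa did not pass. Of the 25 glycolysis and hypoxia genes 5 rose and 9 fell (median -0.10; 8 and 13 with the block; 5 and 5 without replicate 1).

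Among genes of lipid handling 4 rose and 5 fell of 23 (17.4% and 21.7%, beside 12.2% and 13.6% of all genes). The median was 0.00, and the counts were 8 and 8 with the block and 4 and 3 without replicate 1. Pparg, a nuclear receptor of lipid metabolism, was at 42.7, 54.8, 44.5 and 42.8 CPM with vehicle and at 12, 13.6, 13.5 and 15.3 CPM with activated platelets (3.4-fold lower, log2 fold change -1.76 ± 0.10, SE, adjusted p = 4.77e-09). Its known targets Fabp4 (from 50.5 to 24.2 CPM) and Lpl fell. Lpl, lipoprotein lipase, was at 2779, 4198, 2092 and 2429.5 CPM and then at 1257, 1845, 1076 and 1073 CPM (adjusted p = 0.00298). Lpl was highest in replicate 2 of both groups and its call ended without replicate 1, and that of Fabp4 ended without replicate 1 or 3. Cd36 and Plin2, also known Pparg targets, did not pass. The cholesterol exporter Abca1 was at 574, 665, 768 and 590.0 CPM and then at 1314, 1667, 1524 and 1308 CPM (2.24-fold higher, log2 fold change 1.16 ± 0.12, SE, adjusted p = 3.33e-06), whereas Abcg1, another exporter, did not pass and its log2 fold change was 0.00. Olr1, a receptor for oxidised lipoprotein, rose from 0.391 to 3.64 CPM. Of 21 sterol synthesis genes 2 rose and 1 fell (9.52% and 4.76%, below the 12.2% and 13.6% of all genes). The counts were 4 and 3 with the block and 2 and 2 without replicate 1. The fall was Dhcr7, which makes cholesterol from its last precursor (from 21.9 to 16.7 CPM).

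Genes of alternative activation showed no common direction, with 3 rises and 4 falls among 14 (median -0.13). Beside Tgm2, arginase 1, Arg1, rose to a low level (0.144 ± 0.0974 to 1.0 ± 0.217 CPM, adjusted p = 0.000143), and Pparg, Irf4, Clec10a and the mannose receptor Mrc1 fell. For the uptake of dead cells 4 rose and 6 fell of 19 (median -0.09). The cystine transporter Slc7a11 rose from 14.2 to 50.4 CPM and the integrin Itgb5 from 454 to 659.9 CPM, while Gas6, Pros1, Mertk, Dock1, Elmo1 and the scavenger receptor Stab2 (from 8.01 to 3.25 CPM) fell.

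Slc40a1 fell and zinc genes changed both ways. Slc40a1, ferroportin, the only known cellular iron exporter, was at 353, 413, 549 and 414 CPM with vehicle and at 107, 119, 171 and 104 CPM with activated platelets (3.45-fold lower, log2 fold change -1.79 ± 0.19, SE, adjusted p = 4.08e-06), highest in replicate 3 of both groups. It stands on the list of NRF2 antioxidant genes, of which 5 rose and 4 fell of 19 (9 and 5 with the block, 3 and 1 without replicate 1). Hmox1, which frees iron from haem, was at 203 ± 33.2 and 173 ± 22.1 CPM (adjusted p = 0.18; 6.43e-05 and lower with the block). Of 21 zinc genes 7 rose and 4 fell (median -0.05). The metallothionein gene Mt2 was at 6.76, 6.73, 5.64 and 8.46 CPM and then at 1.23, 0.901, 0.539 and 0.995 CPM (7.45-fold lower, log2 fold change -2.9 ± 0.22, SE, adjusted p = 1.26e-07), Mt1 fell from 42.8 to 13.7 CPM and the zinc exporter Slc30a1 from 54.3 to 21 CPM. The importers Slc39a10 (from 60.1 to 169.7 CPM) and Slc39a14 (from 32.3 to 57.2 CPM) rose.

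**Figure D3:**
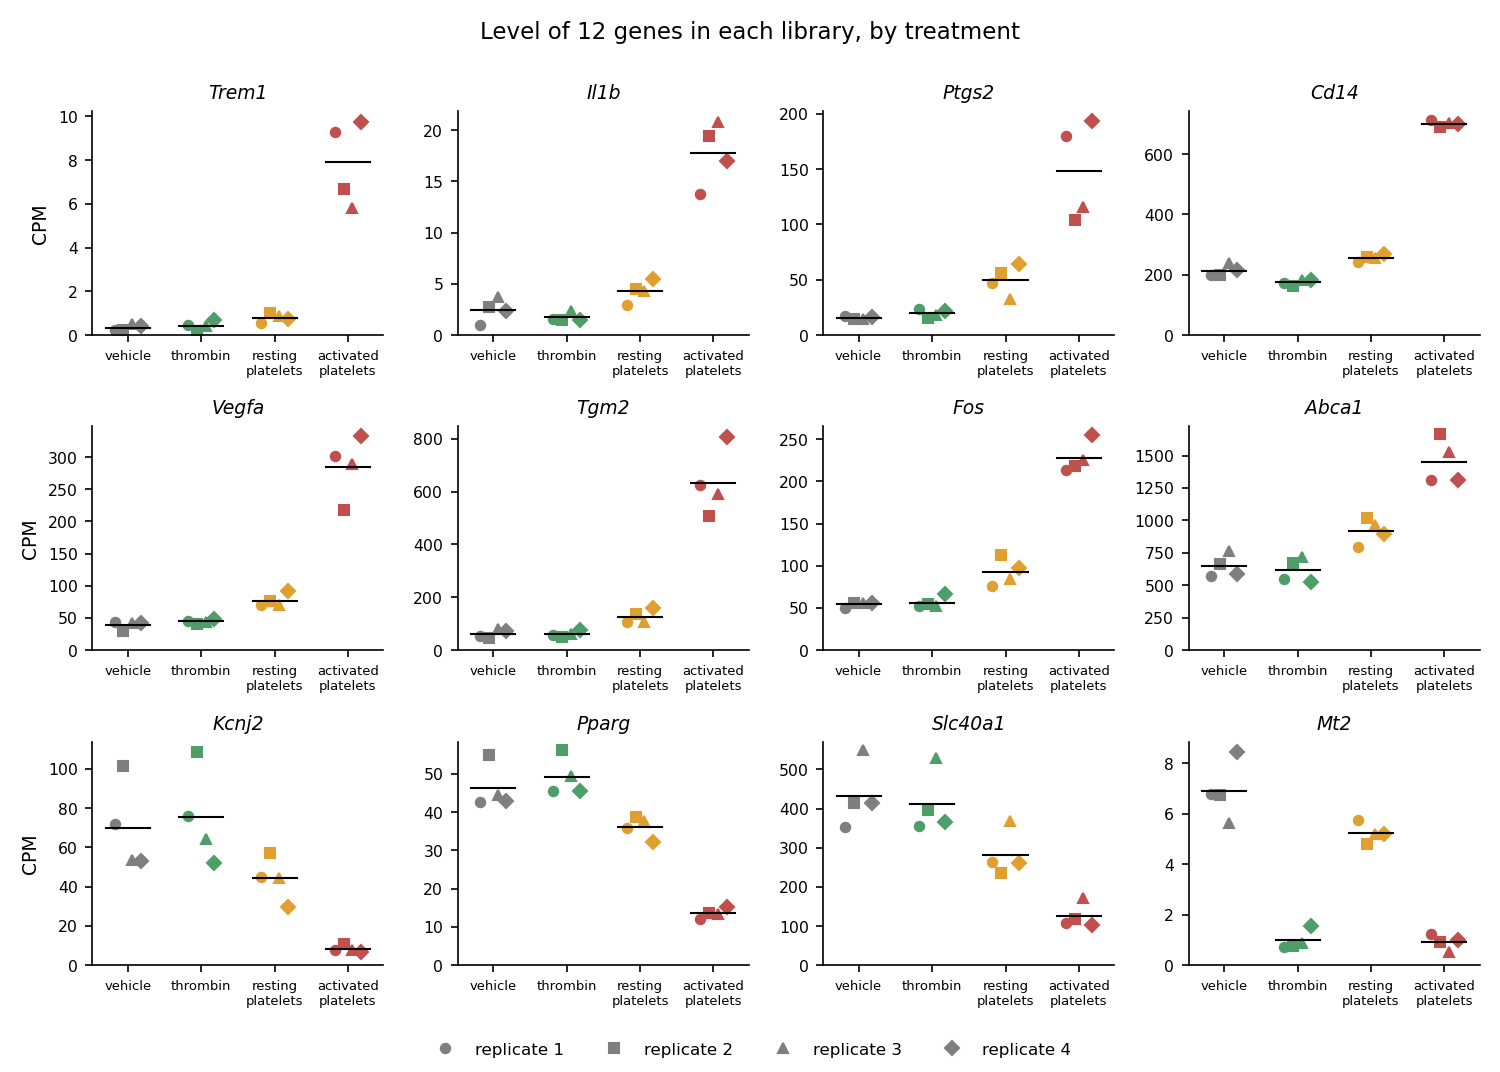
CPM (y axes, linear from 0) of 12 genes in each of 16 libraries by treatment, with replicate numbers as symbols and the mean of 4 libraries as a black bar. Activated platelet libraries lie apart from vehicle in every panel, as in 26% of all tested genes, and many of the 12 were named by a rule that requires it. Thrombin libraries lie with vehicle for Kcnj2 and Pparg, and with activated platelets for Mt2 (0.98 and 0.917 CPM).

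Ion channel and kinase genes included single large falls. Kcnj2, an inward rectifier potassium channel (chromosome 11, 110956990 to 110967651), was at 72, 101, 53.4 and 53.1 CPM with vehicle and at 7.88, 11, 7.65 and 6.55 CPM with activated platelets, 8.44-fold lower (log2 fold change -3.08 ± 0.28, SE, adjusted p = 7.97e-07), highest in replicate 2 of both groups. Another potassium channel gene, Kcna3, was at 4.04, 3.41, 3.66 and 3.57 CPM and then at 18.7, 20.1, 16.7 and 16.5 CPM (4.89-fold higher, log2 fold change 2.29 ± 0.10, SE, adjusted p = 4.14e-10). Of 20 channel and transporter genes 4 rose and 6 fell (median -0.11). Map2k6, which activates p38, was at 7.48, 6.95, 9.08 and 8.81 CPM and then at 1.95, 2.11, 2.12 and 2.16 CPM (3.88-fold lower, log2 fold change -1.95 ± 0.13, SE, adjusted p = 3.35e-08), while the related kinase Map2k3 rose from 74.9 to 117 CPM. Of 21 mitogen-activated kinase genes 3 rose and 4 fell (14.3% and 19%, near the 12.2% and 13.6% of all genes; median -0.02; 5 and 4 with the block).

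Insulin and Foxo signalling held 3 rises and 6 falls among 19 (15.8% and 31.6%, beside 12.2% and 13.6% of all genes; median -0.12; 3 and 10 with the block). Irs1, the insulin receptor substrate, fell from 14 ± 4.31 to 3.24 ± 1.32 CPM (log2 fold change -2.11 ± 0.31, SE, adjusted p = 0.000112), and Sesn1, a stress protein that restrains mTOR, was at 129, 139, 139 and 125 CPM and then at 43.8, 51, 51.4 and 42.1 CPM (2.82-fold lower, log2 fold change -1.5 ± 0.10, SE, adjusted p = 1.80e-08). Trib1 rose from 23.1 to 49.3 CPM. Of 16 circadian clock genes 7 rose and 3 fell (median -0.06; 7 and 6 with the block), with the repressor Bhlhe40 from 28.2 to 62.3 CPM and the output gene Dbp from 38.8 to 19.6 CPM.

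Of 25 interferon-stimulated genes 0 rose and 1 fell (before adjustment 0 up and 3 down at p under 0.05; 0 and 1 by DESeq2; 0 and 2 with the block), the fall being Gbp9 (from 38.4 to 14.8 CPM), and the median was -0.03. Of 18 antigen presentation genes 2 rose and 2 fell (22.2% called, near the 25.8% of all genes; 4 and 5 with the block): the co-stimulatory genes Cd86 (from 36.1 to 81.2 CPM) and Cd80 rose, and the regulators Ciita (from 9.83 to 3.92 CPM) and Nlrc5 fell, while the class II genes H2-Aa, H2-Ab1, H2-Eb1 and Cd74 stood between -0.07 and 0.01 in log2 fold change. Of 17 complement genes 2, the C5a receptors C5ar1 (from 213 to 329.9 CPM) and C5ar2, rose (11.8%, near the 12.2% of all genes) and 0 fell. The counts were 2 and 0 at an unadjusted p under 0.05 and by DESeq2, and 5 and 3 with the block.

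Of 30 cell cycle genes 4 rose and 2 fell (13.3% and 6.67%, beside 12.2% and 13.6% of all genes), with Ccnd1, cyclin D1, from 65.8 to 32 CPM. The counts were 11 and 4 with the block and 2 and 2 without replicate 1. Of 14 heat shock genes 2 rose and 1 fell (14.3% and 7.14%, beside the same shares of all genes), with Hsph1 from 42.8 to 70.4 CPM. Here the counts were 4 and 2 with the block and 2 and 0 without replicate 1. Of 24 lysosome and autophagy genes 0 rose and 4 fell (16.7%, beside 13.6% of all genes lower), a median of -0.10. Before adjustment 2 were up and 4 down at p under 0.05, and DESeq2 gave 1 and 4. With the block, where 42.5% of all genes passed, there were 5 and 14, and without replicate 1 there were 0 and 2. The falls were Tfeb, the main regulator of lysosomal genes (from 64.1 to 41.7 CPM), Mitf, Mcoln1 and Atp6v1a. Of 24 cytosolic ribosomal protein genes 0 were called by edgeR (4 higher at an unadjusted p under 0.05, 3 higher by DESeq2, 6 higher with the block), with a median of 0.05.

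**Figure D4:**
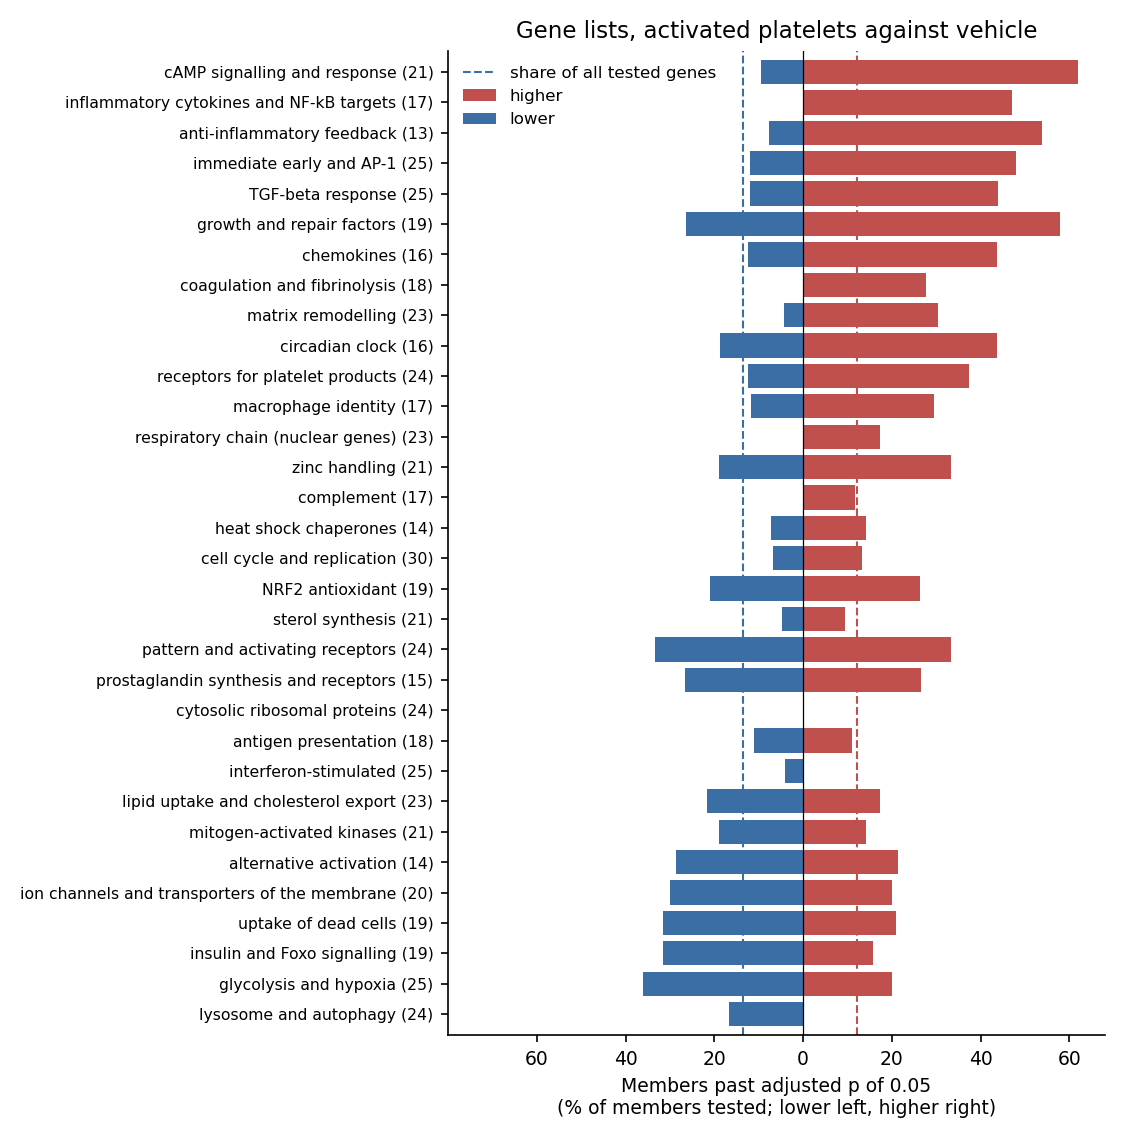
For each of 32 gene lists (number of tested members in brackets), the percentage of members that passed an adjusted p of 0.05 and were higher (red, to the right) or lower (blue, to the left) with activated platelets. Dashed lines give the same shares of all tested genes, 12.2% higher and 13.6% lower. The bar of cyclic AMP genes reaches 61.9% to the right, and that of ribosomal protein genes is 0 on both sides.

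Direct contrasts place this response beside the other treatments. Both share the activated platelet libraries with the contrast above, so agreement between them is no independent support. Against resting platelets 2472 genes passed (15.8% of tested), 1146 higher (7.34%) and 1326 lower (8.49%), and 166 (1.06%) were at least 2-fold higher and 100 (0.641%) at least 2-fold lower. There were 974 without replicate 1, 1376 without replicate 3 and 5391 with the block. Trem1 stood at 0.801 ± 0.213 CPM with resting platelets, 9.84-fold below the activated level (adjusted p = 1.06e-06), Tgm2 at 127 ± 25.8 CPM (5.0-fold, adjusted p = 1.41e-06) and Vegfa at 76.9 ± 10.1 CPM (3.71-fold, adjusted p = 1.84e-07). Ptgs2 was at 49.9 ± 13.8 CPM and Kcnj2 at 44.2 ± 11.1 CPM, each mean between those of vehicle and activated platelets. Cx3cr1 means differed by less than their spread (log2 fold change -0.00 ± 0.18, SE, adjusted p = 0.99). Of the 21 cyclic AMP genes 13 were higher and 1 lower in this contrast. Platelet RNA differed between the same groups: Nrgn was at 6.24 CPM with resting platelets, 7.39-fold lower, and mt-Rnr1 3.29-fold lower. The part of that difference in the other changes was not tested.

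Against thrombin alone 3960 genes passed (25.4%), 1850 higher (11.9%) and 2110 lower (13.5%), of which 298 (1.91%) and 252 (1.61%) reached 2-fold, with 2424 without replicate 1 and 6499 with the block. Label and protocol differ on the thrombin dose, so the 2 groups may differ in thrombin as well as in platelets. Trem1 stood at 0.428 ± 0.218 CPM with thrombin, Il1b at 1.72 ± 0.416 CPM, Vegfa at 44.6 ± 3.38 CPM and Kcnj2 at 75.3 ± 24.4 CPM, beside vehicle means of 0.346, 2.45, 39.4 and 69.9 CPM, and each passed in this contrast (adjusted p = 5.67e-08, 4.30e-07, 1.78e-09 and 5.37e-07). Mt2 and Slc39a10 did not pass in this contrast, in which 6 of 21 zinc genes were higher and 5 lower. Mt2 stood at 0.98 ± 0.384 CPM with thrombin and 0.917 ± 0.288 CPM with activated platelets (log2 fold change -0.10 ± 0.26, SE, adjusted p = 0.843), and Slc39a10 at 191 ± 12.3 and 169.7 ± 10.7 CPM (log2 fold change -0.17 ± 0.07, SE, adjusted p = 0.0994; 0.0041 with the block). With resting platelets Mt2 was at 5.23 ± 0.401 CPM and Slc39a10 at 65.7 ± 6.99 CPM, against 6.9 ± 1.16 and 60.1 ± 4.75 CPM in vehicle. Slc30a1 was lower with activated platelets (21 CPM) than with thrombin (35.6 CPM, adjusted p = 0.00166).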

How the data were processed

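RNA of 16 macrophage libraries was sequenced after poly(A) selection with a stranded kit, per the labels' protocols. The authors deposited estimated counts per gene with no normalization, for 46320 genes with RefSeq coordinates on GRCm39. The submitters' processing notes name featureCounts 1.6.4, STAR 2.7.2b and cutadapt 2.5. Whether strand was used, and how reads with several matches were counted, is not given in these sources, so antisense, overlapping and duplicated genes are uncertain. Of the values above 0, 25.5% were not whole, and all were rounded, which changed 0.00734% of the total.

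Genes were filtered with filterByExpr by group (15610 tested), scaled by TMM and tested with edgeR 4.0.16 (R 4.3.3) by the robust quasi-likelihood test on all 16 libraries as 4 groups, two-sided, with Benjamini-Hochberg adjustment over all tested genes. The design had assumed whole counts. Shares of counts were compared by exact permutation over 70 arrangements. On simulated counts, with 200 of 15610 genes changed, the test recovered 90% of 2-fold and 99% of 4-fold changes for activated platelets against vehicle. It called 13 of the unchanged genes. The simulated libraries shared no effect of replicate number and had few changed genes, so these rates need not hold for the real libraries. Alternatives were the replicate block, GC correction with the block, RLE scaling, library totals, no filter, 2 groups only, the carried lists removed, limma-voom 3.58.1, DESeq2 1.42.0 and leaving out libraries or replicate numbers.

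The 39 gene lists and the comparison itself were chosen with earlier results of these data known. Named by rule were the 12 largest rises and falls (at least 5 CPM, no overlap, no predicted models), the 6 most abundant carried transcripts, up to 2 rises and 2 falls of each list by p, and 17 genes whatever their values. All other genes named were chosen after their values were seen, and some genes are not reported here.

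Same-numbered libraries of the 2 groups deviated together (r 0.29 to 0.617 for 4 pairs). All 24 same-number pairs of the series lay in that range, and other numbers gave -0.436 to 0.253. The replicate number entered the model only in the fits with the block. The main test, which defines "rose" and "fell", left it out (4031 calls, against 6635 with the block). A gene that did not pass there is therefore not shown to be unchanged. Treating equal numbers as matched rests on the data, not the labels. Nothing in the labels says that replicates are separate animals or cultures, so the p-values cover only the spread among these libraries. Replicate 1 differs from the others in sex-linked transcripts. Ddx3y stood at 87.4 (vehicle) and 88.6 CPM (activated platelets) in replicate 1, and Xist at 1055 to 1241 CPM in replicates 2 to 4. Whether replicates 2 to 4 are separate animals cannot be told, and the spread among them is possibly a technical one.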

Additional observations from a re-analysis of the deposited data

Results flagged for a closer look

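In 26 of 390 groups of 4 libraries (6.67%) the highest or lowest library stood apart, its gap to the nearest other library taking most of the group's range (Dixon's test). Chance flags about 1 in 20 groups.

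Vehicle replicate 2 was apart for Vegfa (30.2 CPM, low), Arg1 (0 CPM), Pparg (54.8 CPM, high), Plaur (46.6 CPM), Sdhb (111 CPM), Foxo3 (148 CPM) and Mpig6b, a platelet receptor (0.0455 CPM). Vehicle replicate 4 was apart for Nrgn (0.0714 CPM, 2 counts), Hba-a1 and Hba-a2 (0.0357 CPM each, 1 count), Timp2 (348 CPM) and Hk2 (48.6 CPM). Vehicle replicate 1 was apart for Fos (49.8 CPM), Slc39a9 (81.5 CPM) and Adora2b (2.47 CPM), and vehicle replicate 3 for Crem (12.2 CPM).

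With activated platelets, replicate 2 was apart for Gng11 (48.8 CPM), Clec4e (55.5 CPM), Pde4a (22.3 CPM), Olr1 (7.28 CPM), Hspa8 (1133 CPM) and Tnf (22.2 CPM). Replicate 1 was apart for Pf4 (279 CPM) and Il11 (5.67 CPM), and replicate 4 for Il1rn (56.5 CPM) and Sdhb (119 CPM). For Tnf the high library decides whether the gene passed.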

How the results depend on the processing

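With the replicate number as a block, 6635 genes passed for activated platelets against vehicle (3122 higher, 3513 lower), 5391 against resting platelets and 6499 against thrombin. With the block and a GC correction the counts were 6896 (3366 and 3530), 5352 and 6726. Of the 4031 genes that passed without the block, 4029 also passed with it. Leaving out a library or a replicate number gave 2527 to 3724 for activated platelets against vehicle (higher 1269 to 1758, lower 1258 to 1991), 974 to 2257 against resting platelets and 2424 to 3777 against thrombin. The lowest counts in these 5 ranges came without replicate 1, and without replicate 3 the count against resting platelets was 1376. These fits have fewer samples. Without a replicate number the share ratio ranged from 1.73 to 1.89 for platelet, 1.77 to 1.92 for erythroid, 0.340 to 0.368 for lymphocyte and 0.518 to 0.597 for dendritic cell markers, where 3 against 3 allows no exact permutation p under 0.1.

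The alternatives were followed for 188 genes, those named by rule and those given with levels; genes named without levels were not followed. Of the 188, 182 passed, and 169 of these kept direction and call under every alternative run for them. Those that passed and reversed under none but lost the call under at least 1 were Cyp51, Fabp4, Fth1, Hspa1b, Igf1, Junb, Lpl, Mertk, Rgs18, Selenop, Thbs1, Timp2 and Tkt. With the block, or the block and GC correction, Adgre1, Csf1r, Hmox1 and Myl9 gained it. Leaving out libraries or numbers, the log2 fold change ranged from -0.059 to 0.30 for Myl9, -0.17 to 0.24 for Vwf and -0.49 to 0.03 for Tnf. None of these 3 had passed. Myl9 turned without activated replicate 1 (-0.03) or 4 (-0.0022) or vehicle replicate 2 (-0.059), Vwf without activated replicate 2, vehicle replicate 3 (-0.12) or 4 (-0.07) or replicate 3 (-0.09), and Tnf without activated replicate 4 (0.03) or replicate 1 (0.032). The cause was not tested. Genes under about 1 CPM in vehicle have folds set by few counts.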

Other observations

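Further genes, all but Fth1 outside the lists, are given by their values, after which they were chosen. Il11, a cytokine of the interleukin-6 family, was at 0.215, 0.182, 0.183 and 0.321 CPM with vehicle and 5.67, 3.95, 4.1 and 3.98 CPM with activated platelets (19.1-fold higher, log2 fold change 4.26 ± 0.32, SE, adjusted p = 1.14e-07, edgeR's quasi-likelihood test). Csf2rb, the shared receptor subunit for GM-CSF and interleukin-3, was at 319, 452, 357 and 315 CPM with vehicle and 519, 714, 683 and 564 CPM with activated platelets (log2 fold change 0.78 ± 0.16, SE, adjusted p = 0.00167).

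Chd7, a chromatin remodeller, was at 32.1, 33, 37 and 33.2 CPM with vehicle and 89.4, 91.7, 96.5 and 97.1 CPM with activated platelets (log2 fold change 1.47 ± 0.05, SE, adjusted p = 1.58e-11). Cdk6, a kinase of the cell cycle, was at 105, 98.8, 96.6 and 100.2 CPM with vehicle and 36.8, 39.4, 29.6 and 36.7 CPM with activated platelets (log2 fold change -1.49 ± 0.08, SE, adjusted p = 4.77e-09).

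Fth1, the ferritin heavy chain that stores iron, went from 5975 ± 921 to 9059.9 ± 1464 CPM (adjusted p = 0.00777), a call that ended without replicate 1 or 3. Sirpa, the receptor for the signal CD47 that restrains uptake, went from 2698 ± 143 to 1559 ± 118 CPM (adjusted p = 3.24e-07), and Lipa, the lysosomal acid lipase, from 2125 ± 183 to 1369.6 ± 136 CPM (adjusted p = 0.000166). Cyth1, an exchange factor for Arf proteins, went from 74.6 ± 6.35 to 207 ± 11.3 CPM (adjusted p = 1.44e-09) and Picalm, a clathrin adaptor, from 609 ± 53.1 to 1321 ± 71.6 CPM (adjusted p = 3.68e-09). Selenop, a secreted selenium carrier, went from 2354 ± 444 to 1617 ± 250.1 CPM (adjusted p = 0.0273), a call that ended without replicate 1, 2 or 4.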
